A study of Rattus norvegicus with 232 samples.

Results

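Whole-brain RNA levels of the Brown Norway strain BN/NHsdMcwi were set against those of 7 other classic inbred rat strains that were sequenced alongside it. The 7 strains were FHH/EurMcwi, GK/FarMcwi, LH/MavRrrc, M520/N, MWF/Hsd, PVG/Seac and WAG/RijCrl. BN/NHsdMcwi (BN below) had 3 animals, which are 3 of the 24 libraries compared, of the 214 libraries in the gene table and of 232 in the series, and the other strains had 3 animals each, 21 in all. The members were the libraries whose strain label reads BN/NHsdMcwi. The features described were those of the RefSeq gene table in which the 3 BN animals all lay above, or all lay below, the other 21 animals; these are called outside. All animals were untreated inbred rats, the series describes its animals as naive males, and the labels of these libraries give neither age nor genotype beyond the strain. Labels gave sequencing batches 15, 16 and 17. BN animal 1 was in batch 16 and BN animals 2 and 3 in batch 17, so batch 15, which held animal 1 of FHH, M520, MWF and WAG, had no BN animal.

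Inbred strains differ at fixed DNA variants, and a difference in RNA level shared by all animals of a strain can arise from a variant at the gene, from a variant elsewhere, or from how reads of that strain are counted. BN is the strain from which the rat reference assembly GRCr8 was made. In this contrast the BN genotype and sequence identity with the reference cannot be told apart, and the part of alignment in any difference below was not tested. The methods of the study describe HISAT2 alignment to rn6 genomes into which the SNPs of each strain had been written, for an earlier version of the tables. The labels of these 24 libraries name no genome build, and whether that procedure was used for them is not given in the sources used here. Levels are on a log2 scale, so a difference of 1 is a doubling. The scale shrinks differences of weakly expressed features, and the number of reads behind a value is unknown. Of 20859 features, 911 (4.37%) differed between BN and the mean of the 7 strain means at 5% false discovery rate in limma, 488 higher in BN (2.34%) and 423 lower (2.03%). The majority turned when each library was centred on its median, with 405 higher and 456 lower.

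Over all features the library most like a given library came from its own strain for 19 of the 24 animals. The exceptions were M520 animal 1 and MWF animal 1, which were most like each other, and the 3 WAG animals. At features chosen because they separated the remaining 7 strains, all 24 libraries were nearest to their own strain, and the BN animals correlated with each other at 0.93 to 0.94. The batch 15 libraries stood apart at some features. SHR/OlaIpcv, a strain outside the comparison, had the same 2 animals sequenced in several batches, and its ribosomal Rpl37 read 9.67 in animal 1 and 9.83 in animal 4 in batch 15, against 6.94 to 7.33 in batches 16 to 18. Outside counts are therefore also given without batch 15. Markers of neurons, astrocytes and oligodendrocytes had mean levels of 14.2 to 14.3, 13.97 to 14.10 and 14.2 to 14.4 in the BN animals, overlapping the 14.2 to 14.4, 13.71 to 14.04 and 14.1 to 14.4 of the others.

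BN lay outside at 281 features (1.35%), 137 above the other animals (0.657%) and 144 below (0.69%). Of these, 255 also passed 5% false discovery rate, 130 higher and 125 lower, and 26 did not. The test used the same values as the rule and is no separate check. The count of outside features was 305 for GK, which exceeded BN, 197 for LH, 148 for PVG, 109 for FHH, 101 for MWF, 85 for M520 and 30 for WAG. As shares of all features these were 1.46%, 0.944%, 0.71%, 0.523%, 0.484%, 0.407% and 0.144%. The 4 strains with an animal in batch 15 (FHH, M520, MWF and WAG) had the 4 lowest counts, so the order of the strains and the batch cannot be told apart. Without batch 15 the BN count was 399, with 210 above and 189 below, against 17 other animals in place of 21. The share of outside features that were higher was 48.8% in BN and ranged from 34.5% in PVG to 68.3% in MWF. The BN share lay inside the range of the other strains.

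**Figure D1:**
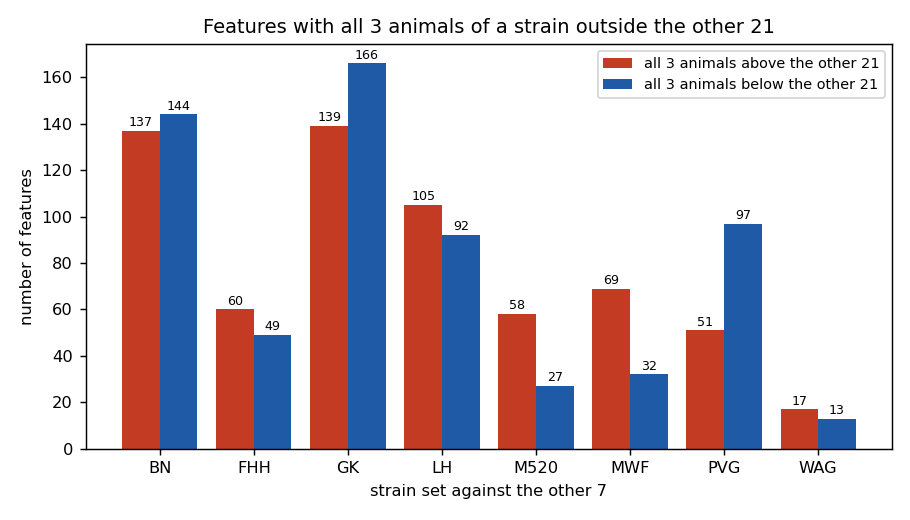
Number of features (vertical axis) for which all 3 animals of a strain lay above (red) or below (blue) the other 21 animals, for each of the 8 strains (horizontal axis). BN has 137 above and 144 below, GK 139 above and 166 below, and WAG 17 above and 13 below.

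The median size of the BN difference was 0.47 over the outside features and 0.09 over all features. A larger size follows from the rule that picks outside features. Of the outside features that passed the test, 18 were more than 1 higher in BN and 15 more than 1 lower. Beyond 2 there were 5 outside features, all lower in BN. Outside features were protein coding for 78.8% of those above and 78.5% of those below, against 80.2% of all features. Features with a LOC symbol, which have no assigned gene name, made up 29.9% of the outside features and 22.9% of all. In the other strains they were 21.8% (LH) to 46.7% (WAG) of the outside features. By RefSeq assignment, the share of outside features ran from 0.725% on chromosome 8 to 2.44% on chromosome 20 among the autosomes and X, with none of the 12 features on Y. Chromosomes 17, 5 and 2 were close to the highest, at 2.31%, 2.30% and 2.22%. Chromosome 20 carries the rat major histocompatibility complex (MHC).

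**Figure D2:**
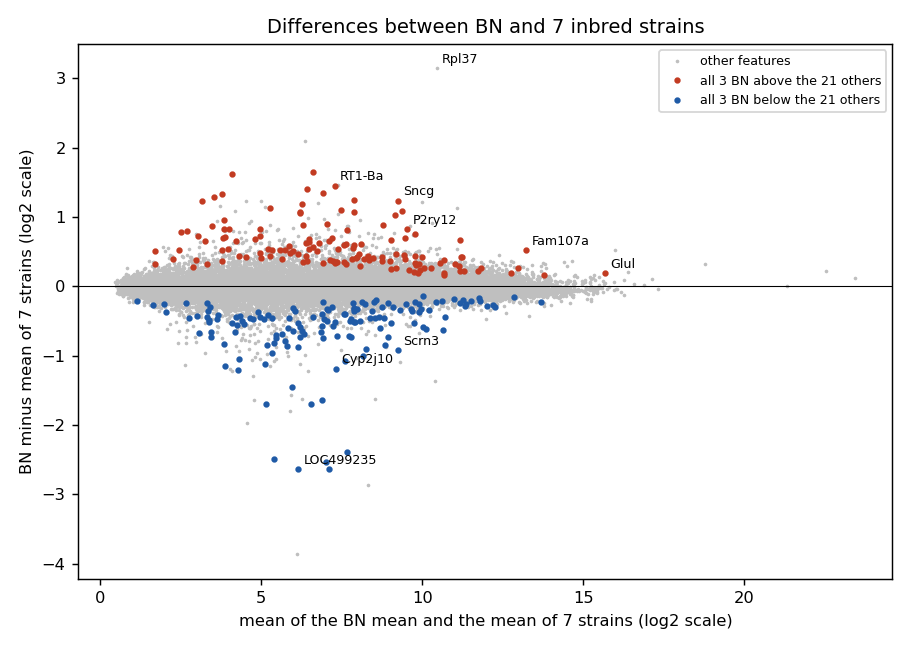
BN minus the mean of the 7 strain means (vertical axis, log2 scale) against the average of the BN level and that mean (horizontal axis, log2 scale), 1 point for each of 20859 features. Red points are the 137 features with all 3 BN animals above the 21 others and blue points the 144 with all 3 below; the 5 outside features that differed by more than 2 all lie below the zero line.

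MHC class II molecules present peptides from outside the cell to CD4 T cells, and in brain they are carried mainly by microglia, macrophages and dendritic cells at its borders. The rat MHC is called RT1; RT1-Ba and RT1-Bb encode the alpha and beta chains of 1 class II molecule, RT1-Da and RT1-Db1 those of the other, and Cd74 encodes the invariant chain that guides them through the cell. All 5 genes were higher in BN. Their RefSeq promoters, from 250 bases before to 50 bases after the start of the gene in assembly GRCr8, are shown because the chains of both molecules were higher together. Capitals mark the Y box CTGATTGG, a known element of class II promoters, searched on both strands. It was found in the forward direction in all 4, its first base lying 46, 64, 52 and 83 bases before the start in the order shown; 3.5% of the 33469 promoters in the table held it. The windows of Cd74, RT1-DMa and RT1-DOb did not hold these letters, and that of RT1-DOa, whose level is not analysed here, held them 110 bases before the start.
RT1-Ba, chr20:4576807-4577106, plus strand: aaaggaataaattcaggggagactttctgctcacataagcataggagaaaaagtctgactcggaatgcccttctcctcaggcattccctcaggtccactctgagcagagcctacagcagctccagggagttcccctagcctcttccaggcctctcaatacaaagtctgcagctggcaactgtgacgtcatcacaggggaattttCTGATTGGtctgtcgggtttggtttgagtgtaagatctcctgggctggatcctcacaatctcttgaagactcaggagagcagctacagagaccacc
RT1-Bb, chr20:4604069-4604368, minus strand: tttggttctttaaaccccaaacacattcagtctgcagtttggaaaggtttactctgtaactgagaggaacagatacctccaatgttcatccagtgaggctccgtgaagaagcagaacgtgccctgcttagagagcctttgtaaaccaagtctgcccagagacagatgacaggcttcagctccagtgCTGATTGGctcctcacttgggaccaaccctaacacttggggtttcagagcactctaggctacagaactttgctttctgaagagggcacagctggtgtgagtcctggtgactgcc
RT1-Da, chr20:4515165-4515464, plus strand: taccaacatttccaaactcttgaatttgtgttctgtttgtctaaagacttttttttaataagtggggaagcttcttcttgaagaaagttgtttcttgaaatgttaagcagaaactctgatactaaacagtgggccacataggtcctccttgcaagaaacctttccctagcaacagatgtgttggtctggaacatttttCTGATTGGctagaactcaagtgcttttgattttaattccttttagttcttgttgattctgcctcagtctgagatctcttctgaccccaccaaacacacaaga
RT1-Db1, chr20:4560113-4560412, minus strand: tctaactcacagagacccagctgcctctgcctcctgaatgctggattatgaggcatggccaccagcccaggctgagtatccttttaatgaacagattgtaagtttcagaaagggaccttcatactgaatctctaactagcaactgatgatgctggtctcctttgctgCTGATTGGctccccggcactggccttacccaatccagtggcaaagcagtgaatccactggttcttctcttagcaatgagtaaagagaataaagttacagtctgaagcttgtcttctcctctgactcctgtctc

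RT1-Ba read 8.43, 7.89 and 7.72 in the 3 BN animals, and between 5.97 and 7.00 with a median of 6.65 in the others. The groups did not overlap, and the difference was 1.45 ± 0.14 (SE), or 2.74-fold (limma, adjusted p = 4.67e-07). RT1-Bb read 6.81, 6.74 and 6.64 in BN, and between 5.14 and 6.23 with a median of 5.65 in the others. It was 1.07 ± 0.12 higher (adjusted p = 5.30e-06), also with no overlap. Cd74 read 10.21, 9.80 and 9.73 in BN, against 8.30 to 9.63 with a median of 8.69, a difference of 1.09 ± 0.14 (adjusted p = 2.59e-05). The highest of the other animals in Cd74 were of LH, whose 3 animals read 9.58, 9.27 and 9.63, the highest of them 0.10 below the lowest BN animal. RT1-Da and RT1-Db1 were higher in BN by 0.81 ± 0.14 and 0.75 ± 0.12 (adjusted p = 9.27e-04 and 2.55e-04), but LH animals overlapped BN in both, at up to 7.94 and 7.17.

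Of the remaining class II genes tested, RT1-DMa, RT1-DMb and RT1-DOb did not pass. RT1-DOb, a chain of the regulator of peptide loading, differed by 0.36 ± 0.11 (adjusted p = 0.0786). RT1-DMa and RT1-DMb, which load peptides onto class II molecules, differed by 0.48 ± 0.20 and 0.17 ± 0.12 (adjusted p = 0.235 and 0.539). Ciita, the activator of class II transcription, was near 3 in all groups, at 3.18 ± 0.23 (SD, n = 3) in BN and 3.14 over the strain means. Of 8 microglial markers, 1 passed, the receptor P2ry12. The mean level of the other 7 was 9.46 to 9.54 in the BN animals and 9.10 to 9.74 in the others, overlapping throughout. More cells of a type and more RNA per cell cannot be told apart in whole-brain samples.

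**Figure D3:**
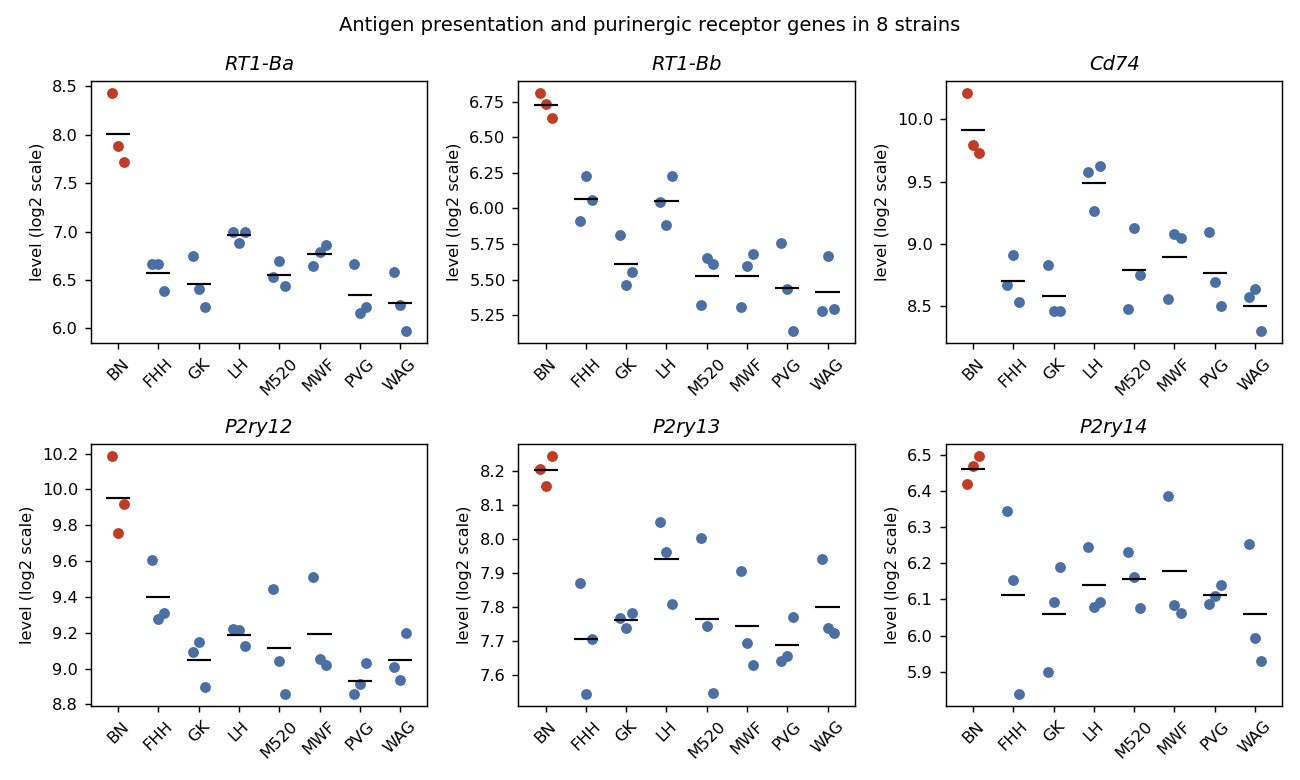
Level of 6 genes (vertical axes, log2 scale, each with its own range) in the 3 animals of each of 8 strains (horizontal axes). Points are animals, red for BN, and bars are strain means; in all 6 panels the 3 BN animals lie above the other 21, by a gap of 0.72 in RT1-Ba and 0.03 in P2ry14.

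Across the MHC list of 43 measured genes, 11 were higher in BN, 7 lower and 25 did not pass, with 6 outside above and 1 below. Over all features 2.34% were higher and 2.03% lower, and 0.657% and 0.69% outside. The count of 7 lower ranged from 3 to 9 with 1 animal left out. The median difference was 0.03, against -0.01 over all features. Class I genes, which present peptides from inside the cell, differed in both directions. RT1-A1, a classical class I gene, was 0.88 ± 0.10 higher in BN and RT1-A3 1.04 ± 0.14 higher, whereas RT1-A2 differed by -0.04 ± 0.13 (adjusted p = 9.61e-06, 3.43e-05 and 0.910). Neither of the higher pair was outside, since GK reached 10.45 in RT1-A1 and FHH 8.03 in RT1-A3. Among nonclassical genes, RT1-CE15 read 7.28, 7.13 and 7.00 in BN against 5.20 to 6.46, and RT1-CE14 7.06, 6.59 and 6.99 against 5.18 to 6.36. They were 1.41 ± 0.17 and 1.19 ± 0.15 higher (adjusted p = 1.13e-05 and 2.30e-05). RT1-T24-3 was 1.79 ± 0.12 lower on the log2 scale in BN (a difference of -1.79, adjusted p = 1.06e-09), with overlap. B2m, the light chain of all class I molecules, differed by 0.02 ± 0.08. RT1 genes are close copies of each other and differ between haplotypes, so reads can be divided among them differently in each strain and single class I values are uncertain. RT1-CE3 (+0.87 here) had a difference of -0.24 in the Ensembl table of an earlier version, and RT1-M3-1 and RT1-T24-3 turned from lower to higher, without passing the test, in the table of reconstructed genes (0.20 and 0.47).

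P2ry12, P2ry13 and P2ry14 encode neighbouring nucleotide receptors, the first known as a marker of resting microglia, and all were outside above. P2ry12 read 10.19, 9.75 and 9.92 in BN and 8.86 to 9.61 with a median of 9.09 in the others, a difference of 0.82 ± 0.11, or 1.77-fold (limma, adjusted p = 4.22e-05). The highest other animals were animals 1 of FHH, MWF and M520, of batch 15, at 9.61, 9.51 and 9.45. In the 2 SHR animals P2ry12 was also higher in batch 15 (9.47 and 9.65) than in batches 16 to 18 (9.09 to 9.30), so the batch without a BN animal lay nearest to BN. P2ry13 was 0.43 ± 0.09 higher, at 8.16 to 8.25 in BN against 7.55 to 8.05. P2ry14 was 0.35 ± 0.10 higher, with 6.42 in the lowest BN animal against 5.84 to 6.39 (adjusted p = 0.00375 and 0.0439). Other groups of outside features that adjoin each other in RefSeq order were also seen: 15 such runs held 33 features. Those with all members higher in BN included RT1-Ba with RT1-Bb, Syndig1l with Npc2, and Cdkn2c with Faf1. Fuca2 and Pex3 were lower together. In 6 of the 15 runs 1 member was higher and the other lower, as in Scamp1 with Ap3b1 and Vxn with Adhfe1.

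Sncg, which encodes gamma-synuclein, and Rbm46, an RNA-binding protein gene known from germ cells, had the largest differences among the 12 named genes higher in BN, which leave out LOC symbols, weakly expressed genes and genes whose groups overlapped. Sncg read 10.05, 9.73 and 9.84 in BN and 8.06 to 9.62 with a median of 8.61 in the others. The difference was 1.24 ± 0.23 (adjusted p = 0.00171), and WAG animal 2 at 9.62 came closest. Rbm46 read 8.84, 8.33 and 8.34 against 6.85 to 8.20, a difference of 1.24 ± 0.18 (adjusted p = 1.09e-04). Agbl4, a carboxypeptidase that removes glutamate from tubulin, had the widest gap of the 12 named genes higher in BN. Its values were 9.79, 9.64 and 9.56 in BN and 8.28 to 9.03 in the others, and BN was 1.03 ± 0.10 higher (adjusted p = 4.47e-07). Syndig1l, a relative of the synapse protein SynDIG1, read 10.12, 10.04 and 10.28 against 8.89 to 9.75. It was 0.76 ± 0.11 higher (adjusted p = 8.02e-05). Nbl1, a secreted antagonist of bone morphogenetic proteins, and Bbs12, a chaperonin-like protein of the primary cilium, were 0.67 ± 0.09 and 0.66 ± 0.10 higher. Naglu, a lysosomal enzyme that degrades heparan sulfate, was 0.62 ± 0.10 higher, and Npc2, the lysosomal carrier of cholesterol named here after its values were seen, 0.42 ± 0.06 higher. Fam107a, an actin-binding protein of astrocytes, reached 13.42 to 13.54 in BN against 12.32 to 13.27. It was 0.52 ± 0.06 higher (adjusted p = 4.97e-06), and 0.51 higher in the Ensembl table. In the reconstructed table the 2 features named Fam107a were 2.50 ± 1.12 and 0.32 ± 0.32 higher and did not pass (limma, adjusted p = 0.391 and 0.773). Thbs1, the matrix protein thrombospondin-1, and Fah, the last enzyme of tyrosine breakdown, were 0.47 ± 0.05 and 0.45 ± 0.08 higher.

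Of the 5 outside features that differed by more than 2, all lower in BN, 2 are pseudogenes in RefSeq. LOC499235, which RefSeq now calls Cdv3l1, read 4.38, 4.94 and 5.15 in BN and 6.99 to 7.87 in the others, a difference of -2.64 ± 0.14 (adjusted p = 1.17e-10). LOC120099223, an Hmgb1 pseudogene in RefSeq, read 5.21, 6.03 and 6.17 against 7.84 to 8.81, a difference of -2.64 ± 0.16 (adjusted p = 1.91e-10). Hiatl3, also a pseudogene in RefSeq, was at -2.54 ± 0.14, and LOC679565 and LOC120096281 at -2.49 ± 0.17 and -2.39 ± 0.21. Reads of a pseudogene can also match its parent gene, so the values of both are uncertain. For LOC120099223 the difference was -0.81 in the Ensembl table, and -6.25 and -0.75 in the 2 features under its name in the reconstructed table. Of the higher LOC features, LOC108353253, a noncoding RNA beside RT1-CE15, was 1.64 ± 0.14 higher and LOC120100725, also noncoding, 1.34 ± 0.14 higher (adjusted p = 1.26e-07 and 1.14e-06). LOC120100725 was at 0.77 in the Ensembl table and from -0.40 to 1.72 in the 5 features under its name in the reconstructed table.

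Aox1, the aldehyde oxidase, had the largest difference of the 12 named genes lower in BN. It read 7.75, 7.66 and 7.58 in BN and 8.36 to 9.00 with a median of 8.64 in the others, so that the other strains lay 2.00-fold above BN (SE 0.07 on the log2 scale, adjusted p = 3.59e-09). Scrn3, secernin 3, read 8.93, 8.71 and 8.74 against 9.51 to 9.97, at -0.92 ± 0.08 (adjusted p = 8.86e-08). The gap between BN and the nearest other animal was 0.62 for Aox1 and 0.59 for Scrn3. Adgrg6, an adhesion receptor needed for peripheral myelination, was at -0.85 ± 0.08, with 8.31 to 8.61 in BN and 8.99 to 9.65 in the others. Fuca2, a fucosidase, was at -0.73 ± 0.09. Pla2g7, which inactivates platelet-activating factor, was at -0.64 ± 0.07, and Gpld1, which releases GPI-anchored proteins, at -0.53 ± 0.06. Pla2g4e, a cytosolic phospholipase, was at -0.45 ± 0.08, and Amacr, the racemase for branched-chain fatty acids, at -0.45 ± 0.06. The remaining 4 were Ccndbp1 (-0.61 ± 0.06), Armh3 (-0.58 ± 0.06), Mphosph6 (-0.52 ± 0.08) and Cfap43 (-0.50 ± 0.13), a protein of motile cilia. Cfap43 no longer passed without any 1 BN animal. Armh3 was at -0.58 in the Ensembl table, but at 0.08 and -0.06 in the 2 features under its name in the reconstructed table (limma, adjusted p = 0.937 and 0.970). Cyp2j10, a cytochrome P450 of fatty acid epoxidation, read 6.65, 6.86 and 6.69 in BN. The others fell into 2 ranges by strain, with LH, PVG and WAG at 7.34 to 7.66 and FHH, GK, M520 and MWF at 8.04 to 8.39, and BN lay below both (-1.19 ± 0.07, adjusted p = 1.17e-10).

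**Figure D4:**
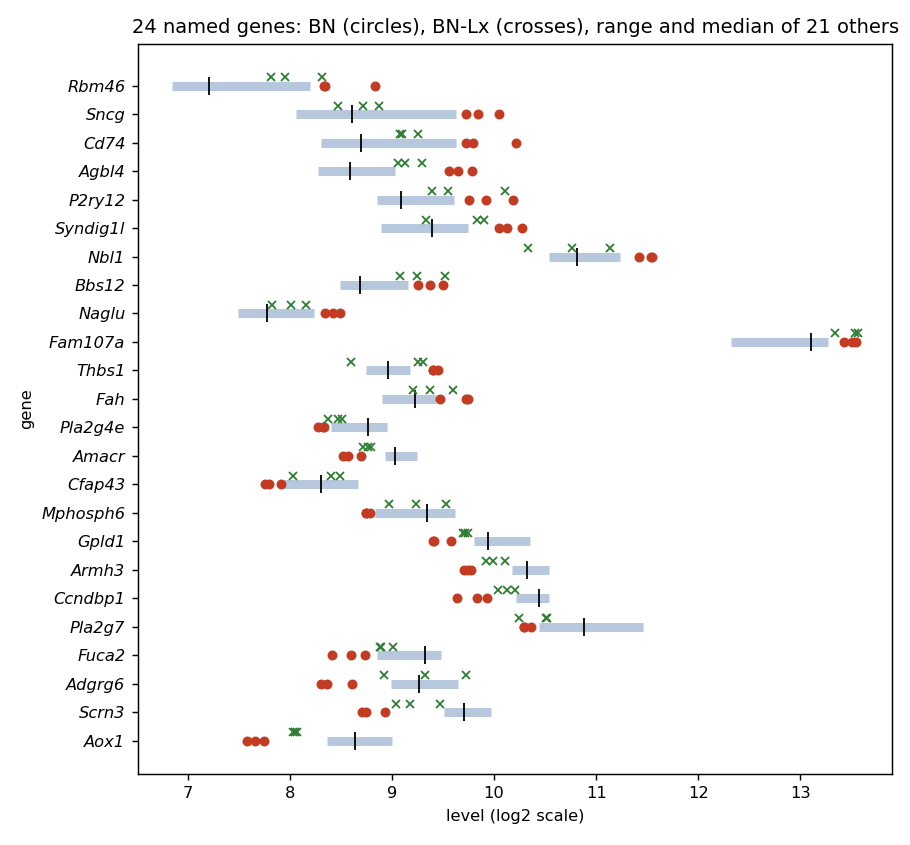
Levels (horizontal axis, log2 scale) of the 24 named genes, 12 higher and 12 lower in BN (vertical axis). Red circles are the 3 BN animals, the pale bar is the range and the black mark the median of the 21 other animals, and green crosses are 3 animals of the related strain BN-Lx/Cub from other batches. Every row has the 3 circles beyond the bar, while BN-Lx lies with BN in some genes, as in Fam107a at 13.34 to 13.57, and not in others, as in Nbl1 at 10.33 to 11.14.

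Of 30 interferon-stimulated genes, which cells switch on in answer to viral or inflammatory signals, 10 were lower in BN, 1 higher and 19 did not pass, where 2.03% of all features were lower and 2.34% higher. The median difference was -0.23 against -0.01 over all features. Rsad2, the antiviral enzyme viperin, read 7.33 to 7.43 in BN against 7.56 to 8.21, and Igtp, an interferon-inducible GTPase, 6.88 to 6.91 against 6.98 to 7.50. These were the 2 members outside (-0.40 ± 0.09 and -0.34 ± 0.07, adjusted p = 0.00649 and 0.00697). Ifi27 was at -0.67 ± 0.10 (adjusted p = 1.89e-04). Ifit1 was at -0.65 ± 0.14 (adjusted p = 0.00556), and at -0.23 with GK left out and -0.44 with FHH left out (adjusted p = 0.497 and 0.0555). The call was lost in 5 of 41 alternatives, and BN at 4.46 to 4.76 lay among LH, M520, MWF, PVG and WAG at 4.23 to 4.89. FHH at 6.25 to 6.93 and GK at 7.61 to 7.91 lay above all of these. Oas1b was the member higher in BN, at 0.67 ± 0.11 (adjusted p = 4.83e-04). The count of 10 lower genes fell to 3 with GK left out, to 6 with LH left out, to 4 with the spread taken from every strain in the table, and to 3 to 5 with any BN animal left out.

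The ribosomal protein list held 100 measured symbols, among them Rps6ka kinases that share its letters; 4 were higher in BN, 3 lower and 93 did not pass, or 7% called against 4.37% of all features. Rpl37 had the largest difference of any called gene in the lists, 3.15 ± 0.57 (adjusted p = 0.00130). It read 12.36, 11.82 and 11.90 in BN, 11.66 to 12.13 in GK and 11.78 to 12.12 in M520 animals 2 and 3, and 6.97 to 7.46 in the animals of FHH, LH, MWF, PVG and WAG outside batch 15. The 4 animals of batch 15 read 9.88 to 10.32 whatever their strain. In the table of reconstructed genes the difference was of opposite sign, -3.04 (adjusted p = 1.70e-06). Rps12 was 1.13 ± 0.29 higher (adjusted p = 0.0249). Rps12 missed the threshold in 8 of 41 alternatives, including each that left out a BN animal (adjusted p = 0.0877 to 0.137) and the Ensembl table, where the difference was 0.47 (adjusted p = 0.553). It read 11.51 to 11.72 in BN, 11.26 to 11.85 in GK, LH and in MWF and WAG outside batch 15, and 8.84 to 9.77 in FHH, M520 and PVG. Both genes have many copies in the genome, and which copy the reads were assigned to was not tested.

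Against 4.37% called over all features, the shares called in the remaining lists were 13.7% of 51 cytochrome P450 genes, 7.69% of 26 glutathione transferase and of 13 renin-angiotensin genes, 2.17% of 276 zinc finger genes, 11.8% of 17 immediate early genes, 7.14% of 14 monoamine genes, 5.56% of 18 ionotropic glutamate receptor genes and 4.35% of 23 aldehyde and alcohol enzymes. The lists with 1 or 2 calls are too short for their share to be read against that background. Of the P450 genes 3 were higher and 4 lower, and of the zinc finger genes 5 were higher and 1 lower. Of these 276, Zfp474, Zfp64 and Zfp488 were outside above, with differences of 0.68, 0.46 and 0.44, where 0.657% of all features were outside above. Zfp64 missed the threshold without BN animal 2 or 3 (limma, adjusted p = 0.0931 and 0.127). Gstt4 (0.50 ± 0.13) and Gsta4 (0.45 ± 0.09), which conjugate toxic compounds to glutathione, were the higher transferase genes, and both missed the threshold without BN animal 1 (adjusted p = 0.325 and 0.0969). Nr4a3 and Fosl2 were the higher immediate early genes (0.43 ± 0.10 and 0.26 ± 0.07). Nr4a3 missed the threshold without any 1 of the BN animals (adjusted p = 0.0577 to 0.0909), and Fosl2 in 9 of 40 alternatives. The call of the monoamine list was Slc18a2, the vesicular monoamine transporter, at -0.69 ± 0.17 (adjusted p = 0.0180), with 7.61 to 8.08 in BN and 7.77 to 9.15 in the others. It was lost in 5 of 42 alternatives, among them those without BN animal 1 or 3 (adjusted p = 0.0532 and 0.219). Enpep, the aminopeptidase that makes angiotensin III, was the renin-angiotensin call (-0.38 ± 0.09), Grin3a the glutamate receptor call (-0.22 ± 0.06), and Aldh5a1, which clears the GABA product succinic semialdehyde, the call among aldehyde and alcohol enzymes (-0.22 ± 0.06). Each was lost without at least 2 of the 3 BN animals taken singly (adjusted p = 0.0508 to 0.245). None of 18 GABA-A receptor genes and none of 16 pigmentation genes passed in limma (3 and 1 had an unadjusted p under 0.05), and mitochondrially encoded genes are not analysed here. Among blood genes, Slc4a1, the anion exchanger of red cells, was outside below (-0.73 ± 0.12, adjusted p = 3.94e-04). The 6 blood markers had a mean of 10.36 to 10.90 in BN and 10.65 to 11.65 in the others, and 1 of them, Hbb-b1, passed (-1.10 ± 0.12, adjusted p = 4.20e-06). The part of blood left in the tissue in the Slc4a1 value was not tested.

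BN-Lx/Cub carries the Lx segment on a Brown Norway background and was sequenced in batches 3, 4 and 6. Its 3 animals, none of them among the 24, were set against 2 animals of SHR/OlaIpcv. The BN-Lx animals had 1, 1 and 2 libraries. SHR animal 1 was the average of 12 libraries of batches between 1 and 18, and SHR animal 4 of 6 libraries of batches 15 to 20. SHR animal 4 thus shared no batch with BN-Lx, and strain and batch cannot be fully told apart in this contrast. Of the 281 outside features, the 3 BN-Lx animals all lay beyond the 21 others on the same side in 39, 14 above and 25 below, and none did so in 106. That is 13.9% of the outside features; the BN-Lx animals lay beyond the 21 on either side at 0.422% of all features and at 0.238% of those where BN was not outside. Both strains are set against the same 21 animals here. The sign of BN-Lx minus SHR was that of BN in 215 (76.5%), against 48.2% of the features that were not outside. At 5% false discovery rate the BN-Lx contrast called 143 features (0.686%), among them 18 outside features (6.41%), of which 17 had the BN direction. The exception was RGD1565355, at -1.21 in BN and 1.42 in BN-Lx minus SHR. The 17 included LOC499235 (-1.50), Hiatl3 (-1.55), LOC108353253 (1.20), LOC120100725 (1.35), Rhbdl2, a membrane protease (-1.93), and Slc4a1 (-1.67). Of the 6 blood markers 4 were also lower in BN-Lx minus SHR, Hba-a1 (-1.28), Hba-a2 (-1.37), Hbb (-1.08) and Alas2 (-1.49), and their part in the Slc4a1 value was not tested. RT1-Ba missed the threshold (1.04, limma, adjusted p = 0.0825). None of the 24 genes named by size of difference passed, and Agbl4 (0.82, 0.0541) and Aox1 (-0.69, 0.0695) came nearest. The sign was opposite to BN in Adgrg6 (0.79), Nbl1 (-0.25), Thbs1 (-0.23) and Mphosph6 (0.06), and that of BN in the rest. Cd74, RT1-Bb, RT1-CE14 and RT1-CE15 were higher by 0.72 to 0.88 without passing (adjusted p = 0.107 to 0.202). In these genes no BN-Lx animal lay above the 21 others. RT1-A1, higher in BN, was lower in BN-Lx minus SHR without passing (-1.47, limma, adjusted p = 0.143). Its BN-Lx animals read 8.45, 9.50 and 8.93, against 10.10 and 10.75 in SHR. RT1-A3 had the BN direction (0.88, limma, adjusted p = 0.125). The 143 calls fell to 0 without BN-Lx animal 3, to 25 and 7 without SHR animal 1 or 4, and rose to 364 without BN-Lx animal 1, so the count rests on single animals. With 1 SHR animal left, that animal is assumed to vary like the BN-Lx animals, which then give the whole spread. In the HXB/BXH family, bred from BN-Lx/Cub and SHR/OlaIpcv, between 11 and 21 of 30 strain means lay on the BN-Lx side of the midpoint between the parents at those 17 features, with a median of 16. The same count over all features is not given. Cyp2j10, Mphosph6 and Cfap43, whose parents hardly differed (0.02, 0.06 and -0.09), had 20, 12 and 25. Inheritance in the family was not tested.

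**Figure D5:**
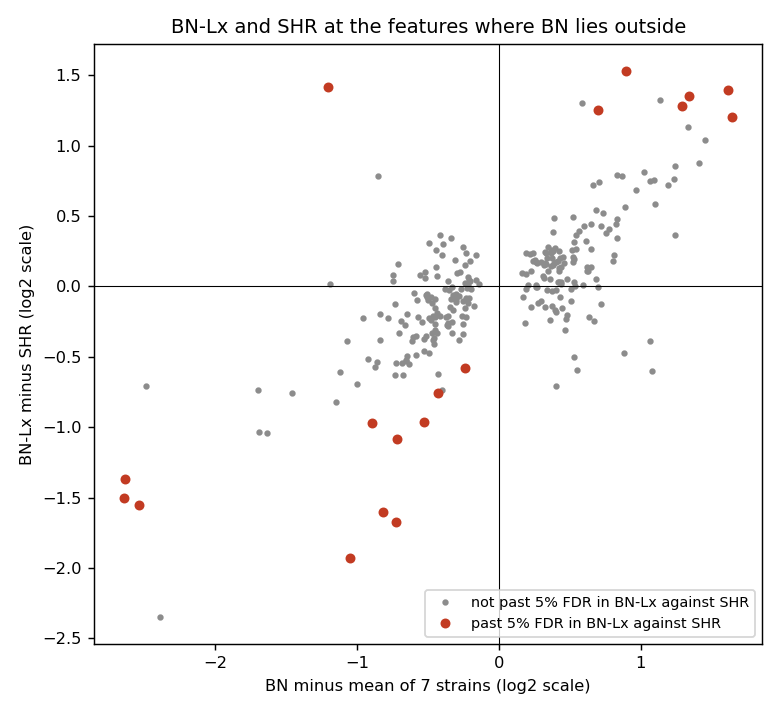
BN-Lx/Cub minus SHR/OlaIpcv (vertical axis, log2 scale) against BN minus the mean of 7 strains (horizontal axis, log2 scale) for the 281 outside features. Red points are the 18 that passed 5% false discovery rate in the BN-Lx contrast; 17 lie in the quadrants where both differences have the same sign.

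At 31 of the outside features, 12 above and 19 below, BN also lay beyond the 43 animals of the FXLE/LEXF family and 39 animals of other classic strains; BN-Lx/Cub and the HXB/BXH family were not counted. Among them were Rbm46, Agbl4, Npc2, Zfp474, Nfyc and Tasp1 above, and Cyp2j10, Fuca2, Armh3, Gpld1, Amacr, Pla2g4e, Ccbe1 and Robo1 below. P2ry12, Cd74, RT1-Ba, Aox1 and Scrn3 were not among them, so at least 1 of those animals overlapped the BN range in each. No such count was made for another strain, so the 31 features have no background here. Many of the added animals came from batches without a BN animal, and the part of batch was not tested.

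In the RefSeq transcript table, looked at after the gene results were seen, BN lay outside at 340 of 45918 transcripts (0.74%), 201 above and 139 below, and 494 passed 5% false discovery rate (1.08%). In 6 named genes there were called outside transcripts in both directions: Aamdc, Dapk3, Kdm4a, Nin, Septin11 and Zc3h15, and none of the 6 was outside in the gene table. For Zc3h15, a zinc finger protein gene, 1 transcript read 6.13, 6.03 and 5.97 in BN against 8.50 to 9.28, and another at least 11.90 in each BN animal against 10.29 to 11.57. For Aamdc, 1 transcript read -1.63, 0.49 and 0.53 against 4.25 to 6.19, and another 8.00, 7.14 and 6.99 against 1.06 to 5.16. Syndig1l, higher in the gene table, had transcripts at 3.34 ± 1.15, -0.61 ± 0.65 and -1.39 ± 0.60. None of them passed (limma, adjusted p = 0.262, 0.840 and 0.456). Naglu likewise had transcripts at 1.26 ± 1.24 and -0.54 ± 0.93 (limma, adjusted p = 0.821 and 0.908). How reads were divided between transcripts of a gene was not tested.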

How the data were processed

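RNA was taken from brain frozen in RNAlater, labelled whole brain, and stranded, rRNA-depleted total RNA libraries were sequenced. For an earlier version of the data, the study's methods state that brains were split sagittally and a hemisphere was used. The submitters' processing notes name cutadapt 1.9.1, Bowtie2 2.3.4.3, HISAT2 2.1.0, StringTie 1.3.5, RSEM 1.3.1 and DESeq2; the study's methods give strain-specific rn6 genomes for an earlier version of the tables, and the build behind these 24 libraries is not given in the sources used here. The values deposited by the authors were log2-scale expression levels per feature, normalised by them, and are taken to be regularised logs. For an earlier version of the tables, the study's methods describe an RUV (removing unwanted variance) adjustment for batch and technical effects before the log. Whether the values used here were adjusted in that way is not known. Read depth is unknown. Here 73 spike-in features were left out, leaving 20859; library medians were 8.27 to 8.37. limma 3.58.1 in R 4.3.3 was fitted with strain as a factor, moderated with a trend, and the contrast was BN minus the mean of 7 strain means, with Benjamini-Hochberg adjustment over all features at 5%. The p-values measure the spread between 3 animals per strain (2 for SHR/OlaIpcv). BN-Lx/Cub and SHR/OlaIpcv libraries were averaged per animal. The fit was checked on simulated data. Named genes were the 12 largest differences each way among features that were outside, passed the test, had a symbol not starting with LOC, RGD or AABR and no pseudogene ending, and whose higher group mean lay above the table median, the 2 largest LOC features each way, and up to 4 calls per gene list. Members and lists were chosen with earlier results of these data known. RefSeq (GRCr8) matched 93.7% of features and supplied names, order and promoters. Gene tables of reconstructed genes (21 of the 24 libraries) and of Ensembl genes (23) were alternatives; 198 and 155 of their columns, and 190 of the transcript table, were not used.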

Additional observations from a re-analysis of the deposited data

How the results depend on the processing

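Depth is unknown, so no limit of detection could be set. Of 42 alternatives for the BN contrast, 37 gave a count of calls within 1.5 times 911. The exceptions were the 3 fits without a BN animal, features above the median only (267 calls, 95 outside, from 10429 features) and the reconstructed gene table (1450 calls, 905 outside, from 84239 features). Leaving out 1 animal gave 460 to 1086 calls, and the lowest counts were those without BN animal 3 (460), 1 (502) or 2 (519). With each library centred on its median the higher and lower calls were 405 and 456 and the outside features 122 and 162; the reconstructed table gave 660 and 790 calls. Batch as a covariate gave 1358 calls and batch 15 left out 1201. The Ensembl table of version 6, added after the data were seen, gave 655 calls and 241 outside features; of 164 outside features it shares by name, 126 were outside the same way and 1, LOC689303, the opposite way. The reconstructed table shared 128 by name, of which 87 were outside the same way. Of 365 calls that it shared by name, 142 were also called there with the same sign and 13 had the opposite sign. In the Ensembl table these were 368 and 11 of 480. For BN-Lx/Cub against SHR/OlaIpcv, libraries of batches 3, 4 and 6 alone, with 1 SHR animal, gave 29 calls, and leaving out 1 animal gave 0 to 364; the cause was not tested. Named genes reversed in 3 cases: Rpl37 (-3.04 in the reconstructed and -0.85 in the Ensembl table) and RT1-T24-3 (0.47, reconstructed). Of the 24 genes named by size of difference, Cfap43 lost its call, in 6 of 41 alternatives. Of the 28 named from gene lists 16 lost theirs in at least 1, most often Rps6ka6 (23 of 39), Fosl2 (9 of 40), Rps12 (8 of 41) and Gstt4 (7 of 41). These counts of reversals and lost calls leave out the reconstructed table for symbols with more than 1 feature there. Of the 24, Armh3 was at 0.08 and -0.06 in its 2 features there, and Fam107a at 2.50 and 0.32, without passing in limma (adjusted p = 0.391 to 0.970). Bbs12 passed in both features (1.05 and 0.61) and Aox1 in 1 of 2 (-1.24 and -0.41). The replicate numbers were not taken to pair the animals, since the labels give no shared litter or day and same-number correlations with BN ran from -0.16 (LH) to 0.16 (M520), not all over 0.1; over all strain pairs they averaged 0.06, against -0.03 for other numbers. With the replicate block the count was 1096.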

Other observations

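Genes of motile cilia recurred among the features lower in BN, which was noticed after their values were seen, so the set has no test. Of 72 measured features whose symbols begin with Cfap, Dnah, Dnai, Dnaaf, Drc, Rsph or Tekt and a number, 8 were lower in BN in limma at 5% false discovery rate (background 2.03%) and none was higher. An unadjusted p under 0.05 was seen in 24 of the 72, and in 3347 of all 20859 features. In 54 of the 72 the difference was below 0, but all were measured in the same 3 BN animals, so these signs are not independent. The median difference was -0.13, against -0.01 over all features. Cfap251 read 7.23, 7.59 and 7.44 in BN and 7.80 to 8.61 in the others (-0.73 ± 0.11). Dnah3, an axonemal dynein, read 6.51 to 6.57 against 6.66 to 7.50 (-0.66 ± 0.12), and Dnah6 7.51 to 7.62 against 7.67 to 8.37 (-0.47 ± 0.10). The mean level of the 72 was 6.81 to 6.84 in BN and 6.81 to 7.14 in the others. The count was 2 or 3 with any BN animal left out. In the brain such cilia are carried mainly by ependymal cells, for which no markers were listed. The 8 choroid plexus markers had a mean of 8.50 to 8.65 in BN and 8.40 to 9.38, with a median of 8.80, in the others. All 8 differences were below 0, from -0.07 (Aqp1) to -0.43 (Clic6) with a median of -0.28, and none passed in limma on its own (adjusted p = 0.148 to 0.840). Whether they are linked to the cilia set was not tested. The part of dissection was not tested.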
